A study of Homo sapiens with 2 samples.

Results

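NF-kB subunits and the feedback genes of the pathway were described by RNA-seq in NCI-H2030, a human cell line from a lung adenocarcinoma, in 2 libraries, of which the SC library came from cells treated with SC and the AS library from cells treated with miR-494-3p AS. The labels spell out neither SC nor AS, and both groups share the cell line, with no other treatment named. The 10 genes, NFKB1, NFKB2, REL, RELA, RELB, NFKBIA, NFKBIB, NFKBIE, BIRC3 and TNFAIP3, were chosen by name from 55773 annotated gene symbols present in both tables. Each of the 10 had 1 row, and 8 of them reached a mean of 1 TPM (transcript abundance corrected for transcript length and scaled within each library) over both libraries, as did 13669 symbols in all. REL and TNFAIP3 did not reach it. With 1 library per group there was no replicate, so no difference has a spread, a p-value or an interval. Every ratio compares 1 library with the other and was not tested as an effect of the treatment.

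NF-kB factors are dimers of Rel proteins that sit in the cytoplasm bound to IkB inhibitors until a kinase complex marks the inhibitor for destruction. In the canonical branch RELA pairs with the product of NFKB1, and in the noncanonical branch RELB pairs with the processed product of NFKB2. Several genes of the pathway are themselves NF-kB targets, among them the inhibitor NFKBIA, the deubiquitinase gene TNFAIP3, which encodes A20, and the ubiquitin ligase gene BIRC3, which encodes cIAP2, so that the pathway feeds back on itself. In lung epithelium the pathway is known for inflammatory and survival signalling.

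The microRNA named in the AS label is shown here because its seed sets the sites looked for in the transcripts. The RefSeq mature sequence of hsa-miR-494-3p (GRCh38.p14, chr14:101029681-101029702, plus strand, 22 bases) is given 5′ to 3′ with the seed, bases 2 to 8, in capitals.
miR-494-3p: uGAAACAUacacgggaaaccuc

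The libraries differed across the whole transcriptome, which sets the scale for the 10 genes. The log2 ratio used throughout is log2((AS + 1)/(SC + 1)) on TPM, which understates the change of genes of low level. Its median over the 13669 measured genes was 0.28, and directions are also given relative to that median. The files give no read counts, so the depth is unknown. Their constant of coverage per unit of FPKM (fragments per length and library size) was 3.62 in SC and 3.54 in AS. The epithelial keratins KRT8 and KRT18 were abundant in both libraries, from 345 to 558 TPM, whereas KRT19 and SFTPC were listed at 0 and CDH1, NKX2-1 and SFTPB were under 1 TPM in both. Of 6 immune markers, PTPRC and CD3E were listed at 0 in both libraries, and the sum was 294 TPM with SC and 207 TPM with AS, nearly all of it CD68 at 285 and 203 TPM. The 2 matched endothelial markers summed to 0.149 TPM with SC and 0.0511 TPM with AS. The 4 fibroblast markers summed to 26.3 and 15.8 TPM, almost wholly from COL1A1, with COL1A2 listed at 0 in both. The part of these markers in the ratios below was not tested.

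Among the subunits, NFKB2 was the most abundant and the one measured subunit that was lower in AS. NFKB2 encodes the precursor of the noncanonical DNA-binding subunit (ENSG00000077150, chromosome 10, 104153867 to 104162281, plus strand, GRCh37). It stood at 243 TPM with SC and 201 TPM with AS, a log2 ratio of -0.27. Its FPKM, which is TPM divided by a fixed factor per library, was 123 and 94.4. Its deposited coverage, the read depth per base, was 341 and 278. NFKB2 was therefore lower in AS in each of these columns, by less than 2-fold, and its rank by TPM among the measured genes was 656 in SC and 758 in AS. In a bulk library fewer cells carrying a transcript and less of it per cell cannot be told apart.

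RELB and RELA, the transactivating partners of the noncanonical and canonical branches, lay close to each other in level. RELA (ENSG00000173039, chromosome 11, 65421067 to 65430565, minus strand) was at 79.2 TPM with SC and 90.7 TPM with AS, a log2 ratio of 0.19. Its deposited coverage, which is not scaled by library, was 71.6 and 73.5. Coverage scaled to the TPM of each library gave RELA a log2 ratio of 0.17. RELB (ENSG00000104856, chromosome 19, 45504688 to 45541452, plus strand) was at 74.8 and 84.9 TPM, a log2 ratio of 0.18. Its deposited coverage was 100.2 and 102.6, with a log2 ratio of 0.17 once scaled. Both were above 0 as deposited but below the median of all measured genes, by -0.091 for RELA and -0.10 for RELB, so their direction turned once the ratios were centred on that median. The ratio of RELB to RELA in TPM was 0.944 in SC and 0.936 in AS.

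NFKB1, which encodes the precursor of the canonical DNA-binding subunit, was scarce beside its partners and had the largest ratio of the subunits (ENSG00000109320, chromosome 4, 103422486 to 103538459, plus strand). It stood at 5.47 TPM with SC and 10.96 TPM with AS, which is 2.01-fold higher without a pseudocount and a log2 ratio of 0.89 with it. Its FPKM was 2.77 and 5.16. Its coverage was 1.67 and 3.37, a column that for this gene is out of step with its FPKM. RELA exceeded NFKB1 in TPM by 14.5-fold in SC and 8.27-fold in AS, and NFKB2 exceeded it by 44.4-fold and 18.3-fold. The subunit pool held 402 TPM with SC and 388 TPM with AS, and the share of NFKB2 in it was 60.3% and 51.8%, that of RELA 19.7% and 23.4%, and that of NFKB1 1.36% and 2.83%. The sum was thus almost level while its makeup was less weighted to NFKB2 in AS.

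REL, the subunit best known from lymphoid cells (ENSG00000162924, chromosome 2, 61108656 to 61158745, plus strand), was near the floor. It was at 0.293 TPM with SC and 0.416 TPM with AS, with a coverage of 0.538 and 0.693 and a log2 ratio of 0.13. A noncoding gene, RP11-373L24.1, lies on the same strand over its last 5702 bases, at 0.413 and 0.637 TPM, and reads shared by both rows cannot be told apart. No order between REL levels in the libraries can be read from values this low.

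**Figure D1:**
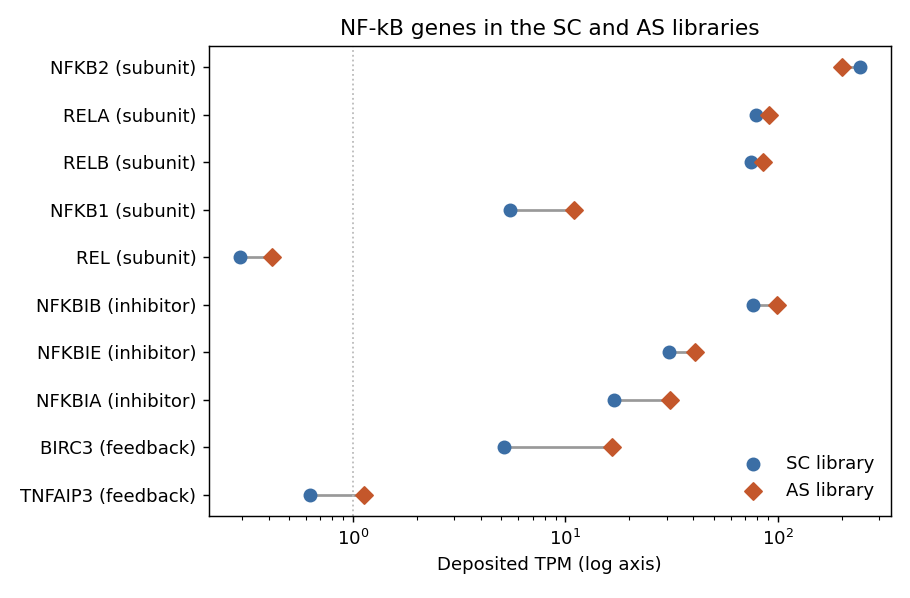
Deposited TPM on a log axis for the 10 genes, with a circle for the SC library and a diamond for the AS library, 1 library each and no error bars. NFKB2 is the one gene whose AS point lies left of its SC point (243 and 201 TPM), BIRC3 has the widest gap (5.14 and 16.6 TPM), and the dotted line marks 1 TPM.

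All 3 IkB inhibitors were higher in AS, and each ratio exceeded the median of all measured genes. NFKBIA, the classical inhibitor that NF-kB itself induces (ENSG00000100906, chromosome 14, 35870717 to 35873955, minus strand), was at 17.0 TPM with SC and 31.1 TPM with AS, a log2 ratio of 0.83. Its FPKM was 8.61 and 14.6 and its coverage 20.1 and 33.7, so that the higher level in AS appeared in coverage as well as in TPM and its rescaled form, FPKM. NFKBIE, which encodes IkB epsilon (ENSG00000146232, chromosome 6, 44225903 to 44233500, minus strand), was at 30.7 and 40.9 TPM (log2 ratio 0.40), with a coverage of 56.4 and 68.2. NFKBIB, which encodes IkB beta (ENSG00000104825, chromosome 19, 39390340 to 39399533, plus strand), was at 76.6 and 99.3 TPM (0.37), with a coverage of 28.6 and 37.9. It overlaps SIRT2 on the opposite strand by 163 bases.

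NFKBIB was the most abundant inhibitor transcript per length in both libraries, with 61.6% of their summed TPM in SC and 57.9% in AS, and NFKBIA the least, with 13.7% and 18.2%. The inhibitors together held 124 TPM with SC and 171 TPM with AS, 1.38-fold higher in AS, whereas the subunits together were at 0.963 of their SC level. RELA exceeded NFKBIA in TPM by 4.66-fold in SC and 2.91-fold in AS.

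BIRC3 was the only one of the 8 measured genes at least 2-fold higher in TPM, where 16.5% of all measured genes were, and none of the 8 was at least 2-fold lower, where 2.17% were. BIRC3 (ENSG00000023445, chromosome 11, 102188215 to 102210134, plus strand), which encodes a ubiquitin ligase of the TNF receptor complex, was at 5.14 TPM with SC and 16.6 TPM with AS, 3.23-fold higher, with a log2 ratio of 1.52. Its FPKM was 2.60 and 7.82 and its coverage 6.998 and 20.7, a 2.96-fold difference. The locus assembled from the reads over BIRC3 was at 4.33 and 19.4 TPM, a log2 ratio of 1.94. BIRC2, its neighbour 7808 bases away and the paralog that encodes cIAP1 (chromosome 11, 102217942 to 102249401, plus strand), was at 4.26 and 19.6 TPM with a log2 ratio of 1.97. The nearest measured gene on the other side, YAP1, was at 6.92 and 16.2 TPM (1.11). Thus BIRC3 and its measured neighbours on both sides were all at least 2-fold higher in TPM in the AS library. Neighbours past 2-fold higher also lay beside TNFAIP3 and REL, whose own log2 ratios were 0.38 and 0.13. Both genes are under a mean of 1 TPM, where the pseudocount of 1 understates a change. Those neighbours were IFNGR1 (1.69) and PERP (1.08), 647765 and 205193 bases from TNFAIP3, and PEX13 (1.06), 85615 bases from REL. EIF3FP3, on the other side of REL, was at 0.094. The nearest measured neighbours of the remaining genes of the group were all within 2-fold. In scaled coverage YAP1 had a log2 ratio of 0.68 and BIRC2 one of 1.84. Transcript GC content was 38.0% for BIRC2, 43.5% for YAP1, 40.2% for IFNGR1, 41.2% for PERP and 38.5% for PEX13. Among measured coding genes in those ranges of GC content, 34.5% to 41.7% were at least 2-fold higher in TPM. The part of GC content at these neighbours was not tested.

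TNFAIP3 (ENSG00000118503, chromosome 6, 138188351 to 138204449, plus strand), the other feedback gene, was at 0.629 TPM with SC and 1.12 TPM with AS (log2 ratio 0.38), with a coverage of 1.10 and 1.87. It is 1.78-fold higher in AS without a pseudocount. At a mean of 0.876 TPM it fell under the filter and is not in the counts.

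The counts were taken in the other measures as well. In FPKM, BIRC3 was the 1 gene past 2-fold higher and none was lower, where 9.37% and 1.64% of all measured genes were. FPKM is TPM divided by a fixed factor per library and so is not a separate estimate. In coverage scaled to the TPM of each library the counts were also 1 and 0, beside 9.47% and 0.863%. In the assembled loci BIRC3 and NFKB1 were both past 2-fold higher and none was lower, beside 16.1% and 2.95% of 13272 genes with a locus in both libraries. The NFKB1 locus was at 5.45 TPM with SC and 12.4 TPM with AS, but its coverage went the other way, from 7.12 to 2.85. The counts of the 8 genes were thus close to the shares of the transcriptome at large. Their median log2 ratio was 0.39 against 0.28 for all measured genes in TPM, 0.28 against 0.17 in FPKM and 0.46 against 0.25 in scaled coverage. Of the 8, 7 were above 0, as were 66.2% of all measured genes, and 5 were above the median of all genes.

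**Figure D2:**
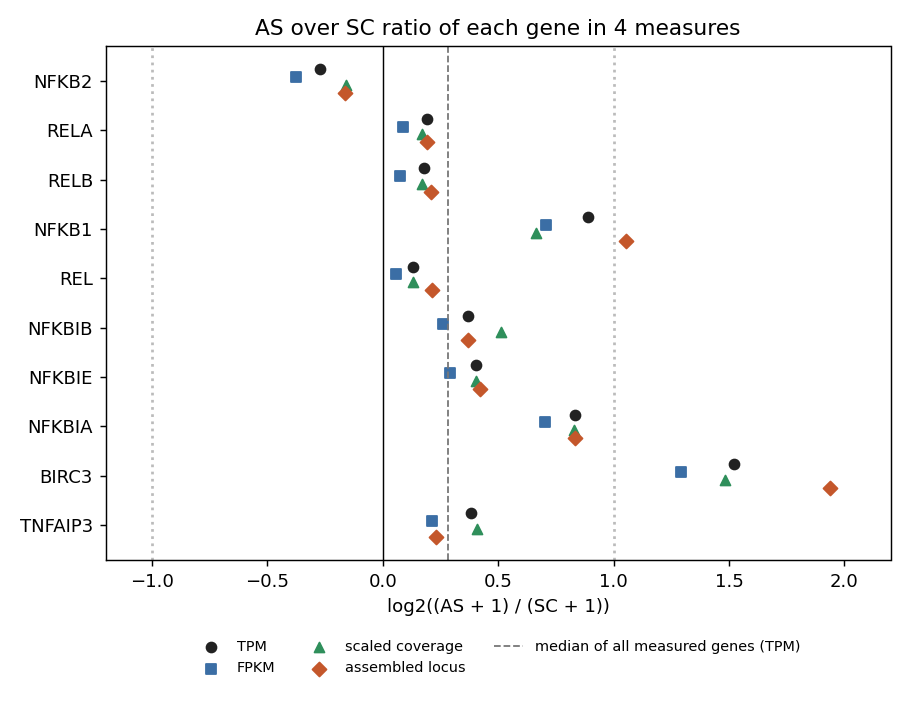
log2((AS + 1)/(SC + 1)) of each gene in TPM, FPKM, coverage scaled to TPM, and TPM of the assembled locus, 1 point per measure. The dashed line is the median of all measured genes in TPM (0.28) and the dotted lines mark 2-fold. BIRC3 lies right of the 2-fold line in all 4 measures, NFKB1 only in the assembled locus (1.05), and NFKB2 left of 0 in all 4.

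The largest gap between the TPM and the scaled coverage ratio was 0.22 among the 8 genes, for NFKB1, and 3.67 among all measured genes, and the median gap was 0.030 over the 8 genes and 0.041 over all measured genes. The scaled coverage of NFKB1 was 0.908 in SC and 2.02 in AS, levels at which the pseudocount of 1 lowers its ratio. NFKB1 was also the gene whose columns stood farthest from the library constant. Its coverage per unit of FPKM was 0.602 in SC and 0.653 in AS, and that of NFKBIB 0.739 and 0.811, against 3.62 and 3.54 for rows at the constant. NFKBIE and REL were at the constant in both libraries. GENCODE release 29 lists 12 transcripts for NFKB1, 6 for NFKBIB, 4 for NFKBIE and 3 for REL. It lists 27 for RELA, at 1.79 and 1.72, and 11 for TNFAIP3, at 3.46 and 3.54. For NFKB2 it lists 9, at 2.78 and 2.94, and for NFKBIA 10, at 2.33 and 2.30. For RELB and BIRC3 it lists 7 each, at 2.65 and 2.57 and at 2.69 and 2.65. The part of transcript number in these columns was not tested.

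Transcript GC content moved with the ratios of all genes, and the values for the 10 genes are given beside it. The Spearman rho of GC content and log2 ratio was -0.64 over 10632 measured coding genes, a description over genes of the same 2 libraries. These genes were put in 10 bins of GC content of nearly equal gene number. BIRC3 transcripts have a GC content of 34.8%, in the lowest bin, where the median log2 ratio was 0.89 and 41.4% of genes were at least 2-fold higher. BIRC3 lay 0.63 above that median. NFKB1 (50.1%) lay 0.45 and NFKBIA (53.1%) 0.57 above the medians of their bins, which were 0.44 and 0.27. NFKBIE (61.0%) and NFKBIB (62.3%) share a bin with NFKB2 (62.4%), whose median was -0.19, and lay 0.59 and 0.56 above it, whereas NFKB2 lay at -0.081 from it. RELB (65.4%) lay 0.47 and RELA (57.1%) 0.26 above. Of the 8 measured genes, 7 were thus above the median of their bin and NFKB2 was below. REL (38.7%) and TNFAIP3 (49.5%) were at -0.76 and -0.060 from theirs. The part of GC content in these ratios was not tested.

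**Figure D3:**
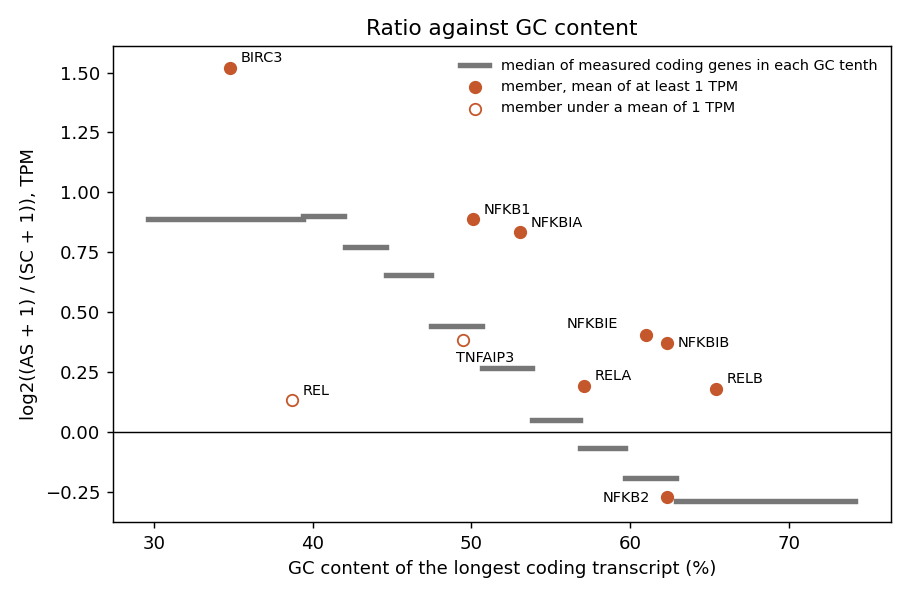
log2((AS + 1)/(SC + 1)) in TPM against the GC content of the longest coding transcript, in percent. Grey bars are medians of measured coding genes in each of 10 bins of GC content, from 0.89 in the lowest to -0.29 in the highest, filled points are the 8 measured genes and open points the 2 under a mean of 1 TPM. All filled points but NFKB2 lie above the bar of their bin.

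The start sites of most of these genes carry letters of the NF-kB binding consensus, which is shown here because the pathway is known to act on its own genes. RefSeq windows (GRCh38.p14) from 250 bases before to 50 bases after a start were found for 8 of the 10 genes, NFKB1, NFKB2, REL, RELA, NFKBIA, NFKBIB, BIRC3 and TNFAIP3, in 13 windows. The NF-kB consensus of 10 bases, GGG followed by a purine, any base, A or T, a pair of pyrimidines and CC, was searched on both strands, and overlapping matches were kept. It occurred in 8 of 13 windows of these genes, 61.5%, and in 5.91% of 35116 windows of all genes. Counted by gene, 7 of 8 genes had a match in at least 1 window, beside 7.09% of 27305 genes with a window, and RELA had none. The genes were chosen by name as pathway and feedback genes, several of them known NF-kB targets, so this contrast is in part set by their choice. A match is a description of letters and not of a bound site.

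The upstream 250 bases are printed for the 3 measured genes with the largest ratios, BIRC3, NFKB1 and NFKBIA, and for NFKB2, the measured gene below 0. They run 5′ to 3′ on the strand of the gene, with matches of the consensus on either strand in capitals. The windows are BIRC3 at chr11:102317234-102317483 (plus strand), NFKB1 at chr4:102501109-102501358 (plus, the first of 2 windows), NFKBIA at chr14:35404750-35404999 (minus) and NFKB2 at chr10:102394328-102394577 (plus, the second of 3 windows).
BIRC3: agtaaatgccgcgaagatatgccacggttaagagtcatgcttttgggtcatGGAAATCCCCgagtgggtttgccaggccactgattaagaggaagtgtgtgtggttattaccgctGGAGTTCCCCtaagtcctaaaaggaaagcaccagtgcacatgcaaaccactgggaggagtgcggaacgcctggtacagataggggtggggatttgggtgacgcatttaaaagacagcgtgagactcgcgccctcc
NFKB1: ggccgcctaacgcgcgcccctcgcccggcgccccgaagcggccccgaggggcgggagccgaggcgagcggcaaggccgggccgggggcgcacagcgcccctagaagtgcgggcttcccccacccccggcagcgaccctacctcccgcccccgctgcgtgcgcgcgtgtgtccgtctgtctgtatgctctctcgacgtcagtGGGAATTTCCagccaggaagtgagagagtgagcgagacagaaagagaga
NFKBIA: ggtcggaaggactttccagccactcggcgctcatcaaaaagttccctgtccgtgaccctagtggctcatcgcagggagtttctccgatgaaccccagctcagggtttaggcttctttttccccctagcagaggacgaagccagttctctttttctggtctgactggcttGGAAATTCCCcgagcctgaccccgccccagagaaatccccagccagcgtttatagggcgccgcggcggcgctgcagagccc
NFKB2: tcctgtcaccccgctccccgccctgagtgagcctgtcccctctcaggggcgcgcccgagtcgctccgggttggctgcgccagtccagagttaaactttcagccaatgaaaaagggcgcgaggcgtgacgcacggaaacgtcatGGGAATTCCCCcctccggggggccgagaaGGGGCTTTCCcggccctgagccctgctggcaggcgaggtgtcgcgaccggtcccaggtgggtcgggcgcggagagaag

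BIRC3 had 2 matches, at -199 to -190 and -135 to -126 from the start. NFKB1 and NFKBIA had 1 each, at -49 to -40 and at -81 to -72. NFKB2 had 3 matches in the printed window, 2 of which overlap by all but 1 base, and the third window held 2 more. TNFAIP3 (2 matches), REL (2 overlapping) and NFKBIB (2 overlapping in its second window) had them as well. Matches lay upstream of 7 of the 8 genes with a window, and their part in the ratios was not tested.

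Seed matches of miR-494-3p were found in the longest annotated 3' UTR of 2 of the 10 genes, BIRC3 and TNFAIP3, and in 27.4% of 19133 coding genes. Sites searched on the sense strand were ATGTTTCA, ATGTTTC and TGTTTCA, the last 2 lying within the first. UTR length differs, from 153 bases in NFKB2 to 9075 in REL. BIRC3 held 1 site, at bases 1012 to 1018 of 2301, and TNFAIP3 held 3, at bases 1233 to 1239, 1383 to 1389 and 2935 to 2941 of 3156. They are printed with up to 11 bases on each side and the match in capitals, since BIRC3 is the gene past 2-fold.
BIRC3 site: gtaaataaatcTGTTTCAtattgtcagtg
TNFAIP3 site 1: tttgcacactgTGTTTCAtcgagtacaga
TNFAIP3 site 2: actgccagaagTGTTTCAttgaagctcag
TNFAIP3 site 3: catattcatcgATGTTTCgtgcttctcct

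No match of these letters lay in the 3' UTR of NFKB1 or NFKBIA, whose ratios were next in size. The bearing of these sites on the measured levels was not tested.

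Other genes of the pathway were read from 5 lists of 141 genes, of which 110 were measured. Of these, 10 were at least 2-fold higher in TPM (9.09%) and 4 at least 2-fold lower (3.64%), beside 16.5% and 2.17% of all measured genes, with a median log2 ratio of 0.37. In scaled coverage 5 were 2-fold higher and none lower. Of the 14 past 2-fold in TPM, 4 were past it the same way in scaled coverage and 11 had the same sign there. In the assembled loci 8 of the 14 were past it the same way, all of them higher. The pseudocount of 1 lowers the ratio of genes of low coverage, which limits the count in scaled coverage.

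Of 11 measured receptors and ligands, 9 were within 2-fold, 1 was 2-fold higher and 1 lower, with a median of -0.056 in TPM and 0.10 in scaled coverage. TNFRSF12A, the TWEAK receptor, was at 279 TPM with SC and 268 TPM with AS, and IL18, an interleukin-1 family cytokine, at 114 and 113 TPM. TNFSF12, which encodes TWEAK, an activator of the noncanonical branch, was at 61.4 and 35.9 TPM (-0.76), and TNFRSF10B, a TRAIL receptor, had a log2 ratio of 0.47. IL1R1, the interleukin-1 receptor, was at 0.132 and 4.89 TPM (2.38) but at 0.243 and 0.360 in coverage. Its assembled locus had a log2 ratio of 1.38. TNFSF10, which encodes TRAIL, was at 2.65 and 0.748 TPM (-1.06) but had a scaled coverage ratio of 0.22 and an assembled locus ratio of 0.036.

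Of 26 measured kinases and adaptors, 2 were 2-fold higher and 3 lower in TPM, and none was past 2-fold in scaled coverage, with medians of 0.41 and 0.28. CHUK, which encodes the kinase IKK alpha, was at 1.48 TPM with SC and 6.31 TPM with AS (1.56), and at 2.70 and 6.29 in coverage. Its scaled coverage ratio was 0.95, which the pseudocount of 1 lowers at such levels, and its assembled locus ratio was 1.80. TANK, a TRAF-binding adaptor at 3.41 and 8.29 TPM (1.08), was the second higher gene and is named outside the rule, after its values were seen. Its coverage was 0.375 and 0.770, too low for the scaled ratio of 0.28 to show a change in full. Its assembled locus ratio was 1.33. TRAF2, the adaptor that brings BIRC2 and BIRC3 to TNF receptors, was at 19.2 and 5.06 TPM (-1.74), whereas its coverage was 5.81 and 7.71. TRAF5 was at 2.06 and 0.339 TPM (-1.19), with a scaled coverage ratio of 0.13. IKBKG, which encodes NEMO, was at 85.6 and 29.8 TPM (-1.49) and at 26.6 and 18.4 in coverage. It has a near-identical pseudogene copy, so its level is uncertain. None of the 3 genes lower in TPM was past 2-fold lower in the assembled loci. The most abundant gene of the list, the interleukin-1 receptor-associated kinase gene IRAK1, was at 408 and 372 TPM (-0.14).

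Of 27 measured ubiquitin enzymes and inhibitors, 4 were 2-fold higher and none lower in TPM, with a median of 0.52. They were BIRC2, FBXW11, TAX1BP1 and ZFAND5. Scaled coverage also gave 4 higher and none lower, with UBE2D3, a ubiquitin-conjugating enzyme gene (1.02), in place of FBXW11. UBE2D3 is named outside the rule, after its values were seen. FBXW11, a subunit of the ligase that marks IkB, was at 0.441 and 10.6 TPM (3.01) but had a scaled coverage ratio of 0.40. TAX1BP1, a partner of A20, was at 22.0 and 53.1 TPM (1.23), with a scaled coverage ratio of 1.05. ZFAND5 was at 10.3 and 23.3 TPM (1.10; coverage 1.04). RBCK1, a subunit of the linear ubiquitin ligase, was at 195 and 103 TPM (-0.91), and TNIP1, which encodes an A20-binding inhibitor, at 210 and 201 TPM.

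Of 17 measured genes among the other IkB family members and cofactors, 2 were 2-fold higher and none lower, with a median of 0.54. They were NKIRAS1, a small GTPase that binds IkB, at 1.30 and 6.36 TPM (1.68; scaled coverage 0.82), and MTPN at 8.78 and 26.5 TPM (1.49 in both measures). EP300, a coactivator acetyltransferase, had a log2 ratio of 0.98 and SIRT1, a deacetylase, one of 0.96. RPS3, a ribosomal protein with many pseudogene copies, was at 1589 and 1822 TPM.

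Described target genes of NF-kB, 29 of which were measured, held 1 gene past 2-fold higher and none lower, 3.45% of the list, with a median of 0.39 in TPM and 0.44 in scaled coverage. That gene was ATF3, a stress transcription factor, at 2.88 and 7.79 TPM (1.18), with a scaled coverage ratio of 0.61. The chemokine CXCL1 was at 5.13 and 9.58 TPM (0.79), and CCL2, a monocyte chemoattractant, at 159 and 245 TPM (0.62), and in both the scaled coverage ratio was close to the TPM one, at 0.75 and 0.62. PLAU, which encodes urokinase, was at 25.9 and 13.7 TPM (-0.87). EGR1, an immediate early transcription factor, was at 1.00 and 2.19 TPM (0.67). IER3, another immediate early gene, stood at 655 and 497 TPM (-0.40). TNF itself was listed at 0 in SC and at 0.0974 TPM in AS, a gene named outside the rule because it is the classical ligand.

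**Figure D4:**
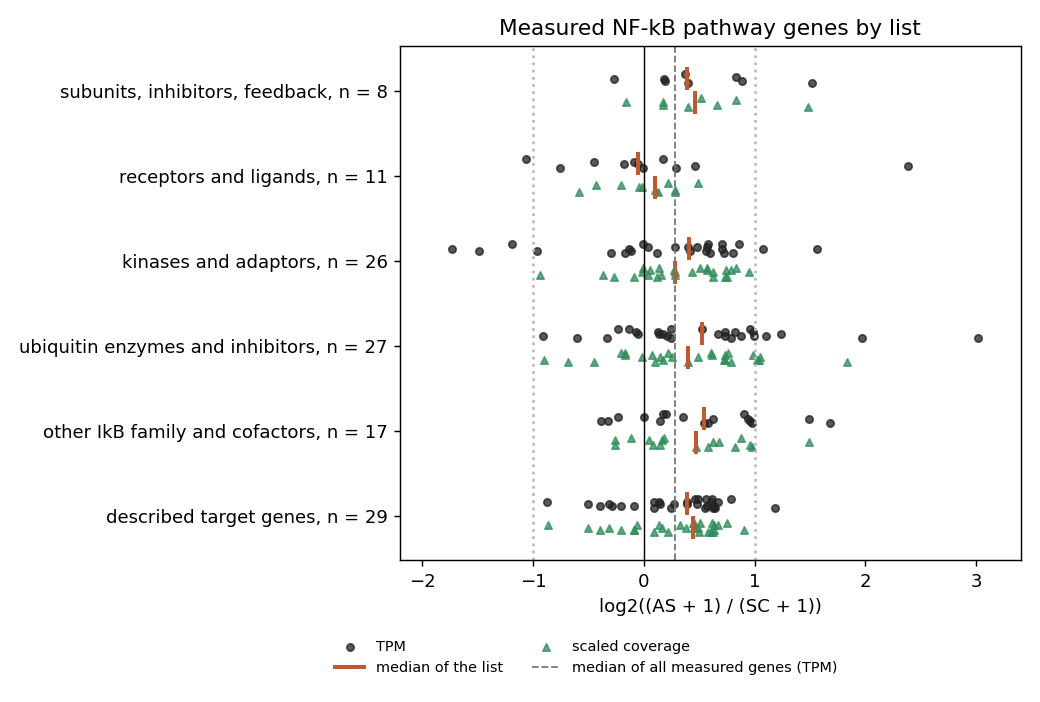
log2((AS + 1)/(SC + 1)) of each measured gene by list, with circles for TPM, triangles for coverage scaled to TPM and vertical bars for the list medians. The dashed line is the median of all measured genes in TPM (0.28). The widest points in TPM, such as FBXW11 at 3.01 and TRAF2 at -1.74, have coverage triangles of 0.40 and 0.43. The pseudocount of 1 lowers the ratio of genes of low coverage, FBXW11 among them.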

How the data were processed

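RNA-seq values of 1 SC and 1 AS library were used. Per the file headers, the authors deposited Coverage, FPKM and TPM for annotated genes and for loci assembled from the reads. The deposited TPM column was handled as a score because it holds both kinds of row, each scaled to a full library on its own. The deposited FPKM times a fixed factor, 1.98 (SC) or 2.13 (AS), gives TPM. The deposited coverage signal is not scaled by library, so it was divided by the library's coverage per unit of FPKM and multiplied by that factor before ratios. Per the submitters' processing notes the build is GRCh38 or hg38, while the tables' gene coordinates are those of GRCh37. The aligner was, like the quantifier, not given in the sources used here. Read counts are unknown, so no interval was computed.

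Rows of 1 symbol were summed, a mean of 1 TPM was required, and a pseudocount of 1 was used (pandas 2.3.3, Python 3.11.15). A gene was counted at a log2 ratio of 1 or more, or -1 or less. In each pathway list the 4 measured genes with the largest absolute ratio and the 2 most abundant are named, except 1 gene that is not reported here. The members and lists were chosen with earlier results of these data known. GENCODE 29 gave transcripts by gene identifier. Calculations were tested on simulated data. Alternatives were other pseudocounts, filters, centrings and measures. MicroRNA and promoter sequences are from RefSeq, GRCh38.p14.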

Additional observations from a re-analysis of the deposited data

How the results depend on the processing

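BIRC3 stayed past 2-fold under pseudocounts, filters, measures and median centring, with log2 ratios from 1.09 (pseudocount 5) to 1.94 (assembled locus), and was at 0.63 once centred on the coding genes of its GC bin, an alternative chosen after the data were seen. Among the 8 measured genes, or all 10 with no filter on level, the count past 2-fold higher was 2 in the assembled loci. It was 0 with that GC centring and 1 in the other alternatives. None was 2-fold lower under any of them. Centring on the median of all genes turned RELA to -0.091, RELB to -0.10 and REL to -0.15. The median of the measured genes ranged from 0.10 (median centring) to 0.51 (GC centring).

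Other pathway genes past 2-fold higher numbered 10, and 20 with a pseudocount of 0.1, 4 with 5, 5 in scaled coverage, 6 with median centring and 3 with GC centring. Those lower numbered 4, and 2 with a pseudocount of 5 or a mean of at least 5 TPM, 0 in scaled coverage and in the assembled loci, and 8 with median centring. Of all measured genes 2251 were past 2-fold higher, against 727 with a pseudocount of 5, 1281 in FPKM, 1294 in scaled coverage, 1253 with median centring, 1268 at a mean of at least 5 TPM and 503 with GC centring. Of all genes 297 were lower, against 501 and 70 with pseudocounts of 0.1 and 5, 118 in scaled coverage, 696 with median centring and 137 at a mean of at least 5 TPM. The causes were not tested. No library could be left out with 1 in each group. EGR1 lacked an assembled locus in at least 1 library. REL and TNFAIP3 had a coverage under 2 in both libraries, which limits their ratios.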

Other observations

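The loci assembled from the reads give further values at these genes. On the strand opposite to BIRC3, an assembled locus of the SC library ran from 102186635 to 102193477 on chromosome 11 (GRCh37), over 5263 bases of the gene, at 1.65 TPM and a coverage of 3.03. The AS library had no locus on that strand there, although BIRC3 itself was at 16.6 TPM in AS against 5.14 TPM in SC.

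At NFKB1 the assembled locus had the same ends in both libraries, those of the annotated gene, but its columns went opposite ways. Its TPM was 5.45 in SC and 12.4 in AS, while its coverage was 7.12 and 2.85. The annotated row of NFKB1 was higher in AS in both columns, at 1.67 and 3.37 in coverage.

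At TNFAIP3 the SC library held 1 locus over 45.9% of the gene and the AS library held 3, the longest over 46.8% of it and covering the opposite end, so the assembled ratio of 0.23 does not compare the same segment. At REL the assembled locus used in both libraries had the ends and the values of RP11-373L24.1 (0.413 and 0.637 TPM), and a further AS locus inside REL was at 1.20 TPM.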
